A study of Homo sapiens with 4 samples.

Results

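The genes described here are 41 genes of the G1/S transition and of DNA replication in MOLM-13, an established line of human acute myeloid leukaemia cells with the KMT2A-MLLT3 (MLL-AF9) fusion. They were taken by gene symbol from a table of 27800 symbols. The rule uses no measured value, but the members were chosen with earlier results of these data known. All 41 were in the table, and each stood above 1 TPM (a length-scaled share of a library's transcripts, set to sum to 1000000) in all 4 libraries. The sgKAT6A libraries came from MOLM-13 cells transduced with a lentivirus that carried CRISPR-Cas9 and sgKAT6A, a guide against the histone acetyltransferase gene KAT6A (2 libraries). The EV libraries, the controls, came from MOLM-13 cells given the lentivirus labelled EV (2 libraries). All 4 libraries share the MOLM-13 background, and the comparison asks what targeting KAT6A did to the transcriptome of these cells. The content of EV, the guide, the time between transduction and harvest, and whether a clone or a pool was sequenced are not stated in the labels.

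Nothing in the labels says that replicates of a group were grown apart, so the p-values cover the spread among these 4 libraries alone, which may be technical. Values are given for replicate 1 and then replicate 2 of a group. KAT6A itself was at 12.2 and 10.8 TPM in sgKAT6A libraries, against 16.2 and 16.7 TPM in EV libraries. All 8 markers of the cell line (CD33, MPO, FLT3, HOXA9, MEIS1, SPI1, CEBPA and PTPRC) were expressed in every library. The second sgKAT6A library stood apart in RNA18SN5, a ribosomal RNA gene, at 340 TPM, where the other 3 libraries held 10401 to 13751 TPM. It is therefore left out in turn where a result could rest on it.

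DNA is copied once per cell cycle because loading and firing of origins are separated in time. In G1, the origin recognition complex (ORC), CDC6 and CDT1 load the MCM2 to MCM7 ring onto DNA. At the G1/S transition, cyclin E with CDK2 and the E2F transcription factors turn on S phase, CDC45 and GINS join the ring to form the active helicase, and the polymerases, the PCNA clamp and its loader RFC follow. Many of the genes that encode these proteins carry E2F sites near their start.

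The 41 genes were, as a group, modestly lower in sgKAT6A libraries, and no single gene passed the test. Their summed level was 2087 and 1834 TPM in sgKAT6A libraries, against 2474 and 2438 TPM in EV libraries. As a share of all protein-coding TPM this was 0.268% and 0.235% in sgKAT6A libraries and 0.305% and 0.299% in EV libraries, so both sgKAT6A libraries lay below both EV libraries on either scale. The fitted difference, sgKAT6A minus EV in log2(TPM + 1), was negative for 41 of 41 genes, from -0.57 for MCM6 to -0.01 for PRIM2. Its median was -0.31, beside -0.02 over all 12603 genes tested, those with a mean of at least 1 TPM. In RNA from bulk cells, fewer cells in S phase and less of each RNA per cell cannot be told apart.

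By limma with Benjamini-Hochberg adjustment over all genes tested, 0 of the 41 passed 0.05, with adjusted p between 0.784 and 0.976. Over all genes, 0% passed (0 of 12603), and 459 had an unadjusted p under 0.05. Of the 41, 10 had an unadjusted p under 0.05, all lower in sgKAT6A, beside 1.98% of all tested genes that were lower at that level. These were DTL, CDC45, FEN1, MCM2, MCM10, PRIM1, MCM3, RFC3, MCM7 and GINS3. With 1 library left out, the fit has a single library in 1 group, assumed to vary like the other group. It has less power for that reason alone, so only the size of the difference is given. The median difference of the 41 was -0.41 without the first sgKAT6A library and -0.23 without the second. It was -0.33 without the first EV library and -0.32 without the second, so its size did not shrink with either EV library.

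In 33 of the 41 genes (80.5%) both sgKAT6A libraries lay below both EV libraries, beside 23.2% of all tested genes. In 0 of the 41 did both lie above, beside 14.4% of all tested genes. The background shares depend on the scaling: with median-of-ratios scaling they were 18.0% lower and 18.3% higher, and with protein-coding genes alone rescaled they were 16.2% lower and 19.5% higher. Under these scalings 31 and 30 of the 41 genes lay lower without overlap. Without the second sgKAT6A library, 36 of the 41 lay below both EV libraries, beside 33.3% of all tested genes, and the median difference was -0.23. The 8 genes whose groups overlapped were RFC5, PRIM2, POLD1, CDT1, E2F1, CCNE1, TK1 and UNG.

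**Figure D1:**
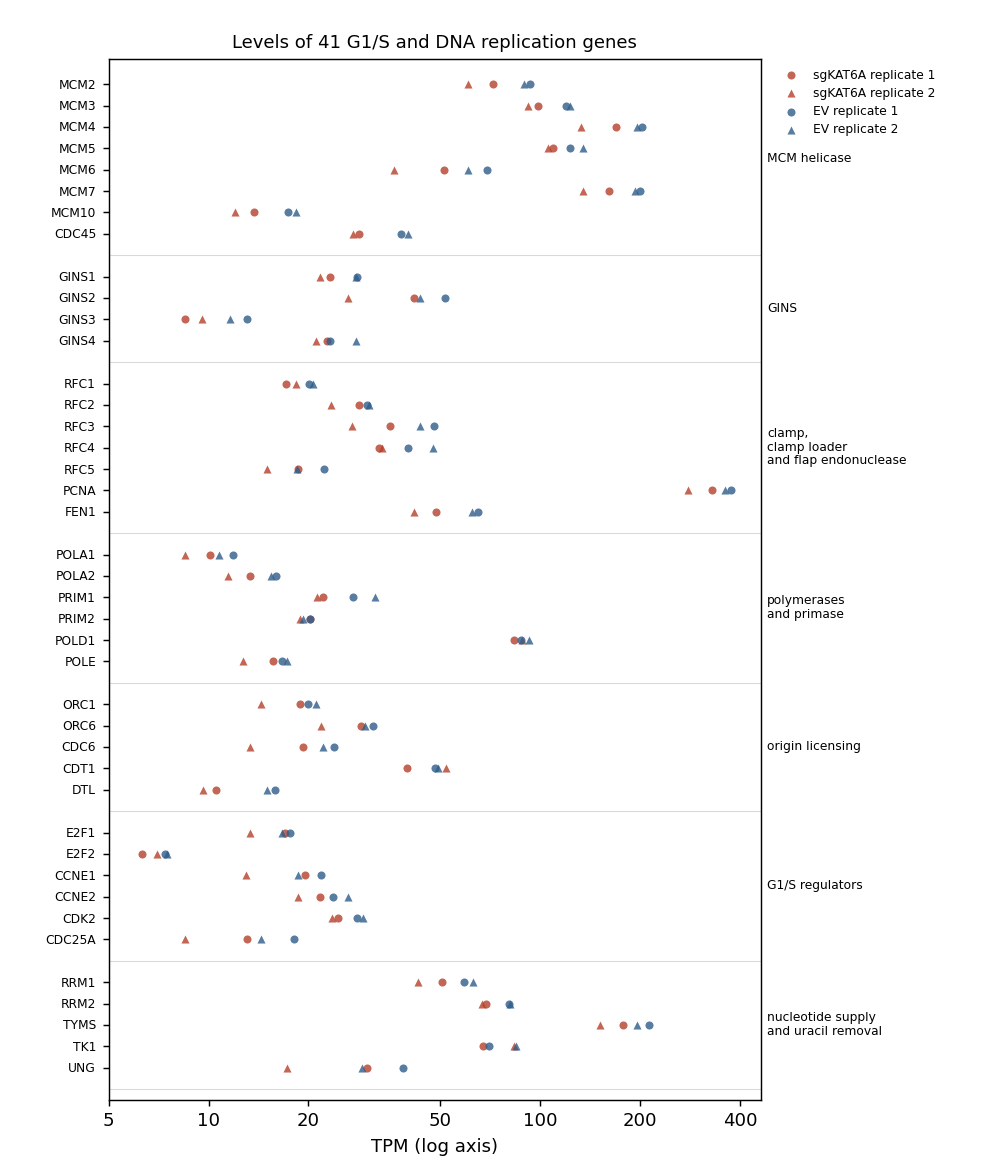
Level of each of the 41 genes in TPM on a log axis, with sgKAT6A libraries in red and EV libraries in blue, circles for replicate 1 and triangles for replicate 2, grouped by complex. In 33 genes both red points lie left of both blue points, and in CDT1 and TK1 the colours interleave.

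**Figure D2:**
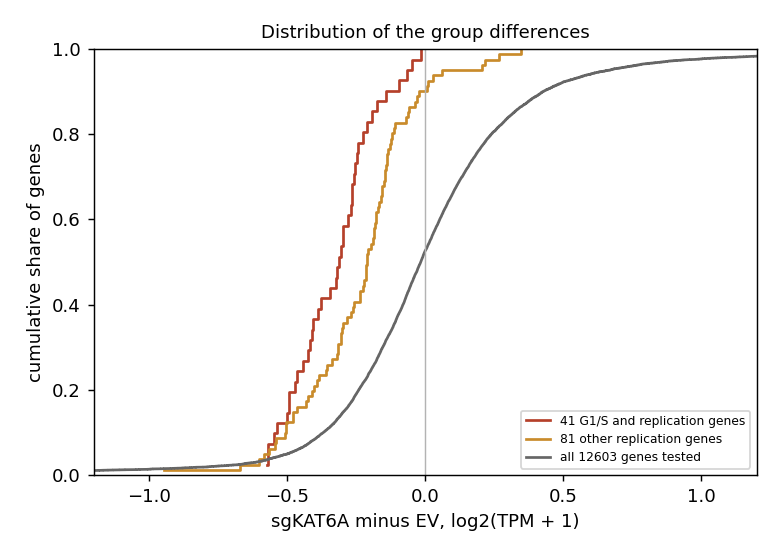
Cumulative share of genes (vertical axis) by difference between sgKAT6A and EV in log2(TPM + 1) (horizontal axis), for the 41 genes, 81 other replication genes and all 12603 genes tested. The curve of the 41 genes lies left of 0 throughout, with a median of -0.31, and that of all genes crosses its middle near 0, at -0.02.

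Promoter sequences are shown because many of the 41 genes share a short motif. Genes of this kind are known to carry E2F sites, as said above, so a high share of them goes with the kind of list. RefSeq start-site windows on GRCh38.p14, from 250 bases before to 50 after the start, were held for 36 of the 41 genes; MCM4, MCM5, GINS4, CCNE2 and CDK2 were not matched. An E2F motif (TTTCCCGC, TTTCGCGC, TTTGCCGC or TTTGGCGC, on either strand) was in a window of 20 of the 36 genes (55.6%), beside 5.40% of 15843 coding genes with a window and 29.2% of the 65 other replication genes with one. The CCAAT box (CCAAT, either strand) was in 23 of 36 (63.9%), beside 42.1% of coding genes and 55.4% of the other replication genes. The CHR element (TTTGAA, either strand), known from late cell cycle genes, was in 2 of 36 (5.56%), beside 15.8% and 13.8%. Of the 27 E2F matches, 22 began within 100 bases of the start site. Matches on opposite strands can overlap, as in MCM2, whose shared letters are a palindrome, and MCM6, where TTTGGCGC on 1 strand overlaps TTTCGCGC on the other. A match describes letters in a window, not binding. Only exact letters count, so a stretch 1 letter away, such as tttggcgg in windows of CDC45 and MCM10, is no match.

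Windows are printed for the gene with the most E2F matches and the lowest difference (MCM6, chr2:135876394-135876693, minus strand), for the gene with the smallest p (DTL, chr1:212035498-212035797, plus strand) and for CDC45, which ranked next by p and has 4 CCAAT boxes but no E2F match (chr22:19479670-19479969, plus strand, 1 of its 3 windows). PRIM2, with a difference near 0, is shown with 1 of its 2 windows (chr6:57317380-57317679, plus strand), neither of which holds any of the 3 motifs. Capitals mark E2F motifs and CCAAT boxes (ATTGG on the opposite strand), and each reads 5′ to 3′ along the gene.
MCM6: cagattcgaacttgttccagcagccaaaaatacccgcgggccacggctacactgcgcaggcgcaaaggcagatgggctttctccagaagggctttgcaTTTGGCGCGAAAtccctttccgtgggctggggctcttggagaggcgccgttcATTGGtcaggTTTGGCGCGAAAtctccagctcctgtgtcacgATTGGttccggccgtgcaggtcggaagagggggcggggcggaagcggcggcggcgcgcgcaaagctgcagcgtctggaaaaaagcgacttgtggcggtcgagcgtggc
DTL: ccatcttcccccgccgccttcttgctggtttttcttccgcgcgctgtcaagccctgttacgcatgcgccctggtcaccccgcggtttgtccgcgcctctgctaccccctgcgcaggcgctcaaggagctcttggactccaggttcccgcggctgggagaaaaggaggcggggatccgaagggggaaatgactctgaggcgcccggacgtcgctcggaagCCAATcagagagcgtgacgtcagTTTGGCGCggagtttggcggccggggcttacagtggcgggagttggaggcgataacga
CDC45: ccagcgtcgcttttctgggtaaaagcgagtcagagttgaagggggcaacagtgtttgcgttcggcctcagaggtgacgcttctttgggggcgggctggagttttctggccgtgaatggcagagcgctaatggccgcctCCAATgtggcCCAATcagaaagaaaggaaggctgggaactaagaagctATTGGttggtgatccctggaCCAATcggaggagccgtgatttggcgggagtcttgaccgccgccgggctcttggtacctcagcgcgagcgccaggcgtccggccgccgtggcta
PRIM2: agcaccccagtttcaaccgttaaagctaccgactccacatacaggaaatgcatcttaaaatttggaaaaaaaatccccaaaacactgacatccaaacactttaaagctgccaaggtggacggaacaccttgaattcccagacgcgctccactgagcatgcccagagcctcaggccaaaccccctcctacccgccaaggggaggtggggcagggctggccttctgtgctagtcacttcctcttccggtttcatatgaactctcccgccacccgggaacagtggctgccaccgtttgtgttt
In MCM6 the E2F letters occur at 2 places, each read on both strands, with a CCAAT box downstream of each.

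Shorter stretches show the E2F match, in capitals, in 9 other members of different complexes, also 5′ to 3′ along the gene. They are MCM2 (chr3:127598398-127598435, plus strand), MCM7 (chr7:100101384-100101421, minus), GINS2 (chr16:85688963-85689000, minus), RFC3 (chr13:33818079-33818116, plus), PCNA (chr20:5126659-5126696, minus), POLA2 (chr11:65261894-65261931, plus), CDC6 (chr17:40287871-40287908, plus), CDC25A (chr3:48188439-48188476, minus) and UNG (chr12:109098094-109098131, plus).
MCM2: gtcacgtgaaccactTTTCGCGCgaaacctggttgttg
MCM7: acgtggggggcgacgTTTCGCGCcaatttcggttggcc
GINS2: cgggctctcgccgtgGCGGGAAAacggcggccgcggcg
RFC3: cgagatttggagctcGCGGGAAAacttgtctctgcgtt
PCNA: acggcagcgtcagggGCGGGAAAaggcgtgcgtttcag
POLA2: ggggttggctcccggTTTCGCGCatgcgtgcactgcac
CDC6: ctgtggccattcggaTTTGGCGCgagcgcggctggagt
CDC25A: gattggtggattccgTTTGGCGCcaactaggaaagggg
UNG: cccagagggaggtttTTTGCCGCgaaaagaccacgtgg
In 6 of these 9 genes (MCM2, MCM7, POLA2, CDC6, CDC25A and UNG) the printed match reads on the gene's own strand, and in GINS2, RFC3 and PCNA it reads on the other. Among the 36 genes, the median difference between sgKAT6A and EV was -0.38 for the 20 with an E2F match and -0.28 for the 16 without. This is a description with no test, and genes without an exact match can hold near forms of the motif.

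**Figure D3:**
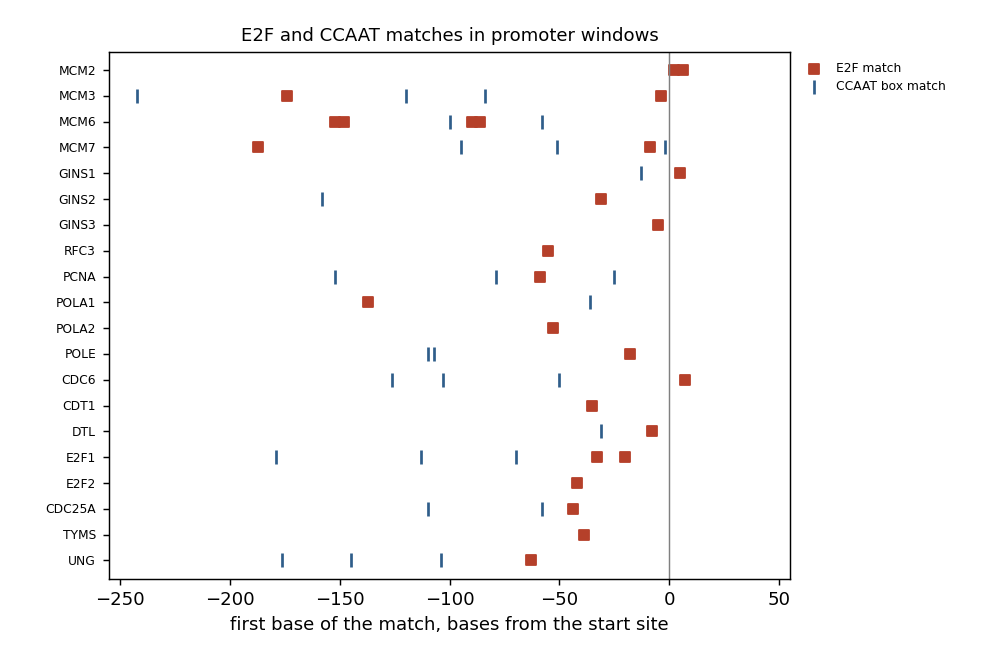
Start of each E2F motif (red squares) and CCAAT box (blue ticks) in bases from the RefSeq start site, for the 20 genes with an E2F match, in the window that holds it. Most red squares lie between -100 and the start site, and 22 of 27 matches are within 100 bases of it.

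The MCM helicase genes had the lowest median difference of the 7 groups of genes. All 8 lay lower without overlap, beside 23.2% of all tested genes. Their median log2 difference was -0.43, or -0.31 without the second sgKAT6A library and -0.54 without the first. In all 8 the difference between groups was larger than both gaps between replicates, beside 23.7% of all tested genes; over the 41 genes it was so in 26. The summed level of MCM2 to MCM7 was 661 and 561 TPM in sgKAT6A libraries, against 807 and 796 TPM in EV libraries. MCM6 was at 51.3 and 36.2 TPM in sgKAT6A libraries, against 68.9 and 60.6 TPM in EV libraries, a log2 difference of -0.57 ± 0.22 (SE, n = 2 each). MCM4 was at 169 and 133 TPM in sgKAT6A libraries, against 202 and 195 TPM in EV libraries. MCM7 was at 161 and 134 TPM in sgKAT6A libraries, against 200.3 and 193 TPM in EV libraries. In all 8 MCM helicase genes the second sgKAT6A library was the lowest of the 4. Both EV libraries were higher than either sgKAT6A library in each.

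The ring is built from 1 copy of each subunit, and the transcripts of the 6 genes differed in level. In sgKAT6A replicate 1 and both EV libraries the order was MCM4, MCM7, MCM5, MCM3, MCM2, MCM6, and in sgKAT6A replicate 2 only MCM7 and MCM4 changed places. The ratio of highest to lowest was 3.30 and 3.71 in sgKAT6A libraries, against 2.94 and 3.23 in EV libraries. MCM2, the subunit that also holds histones, was at 71.9 and 60.5 TPM in sgKAT6A libraries, against 93.3 and 89.3 TPM in EV libraries, a difference of -0.46 ± 0.14. MCM3 stood at 98.1 and 92.1 TPM in sgKAT6A libraries, against 119 and 123 TPM in EV libraries, and MCM5 at 109 and 105 TPM in sgKAT6A libraries, against 123 and 135 TPM in EV libraries. MCM5 had the smallest difference of the ring, -0.26 ± 0.12.

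CDC45 and MCM10 act when the loaded ring is activated. CDC45, which joins the ring, was at 28.4 and 27.2 TPM in sgKAT6A libraries, against 38.0 and 39.9 TPM in EV libraries. Its mean was 28.7% lower, with a log2 difference of -0.47 ± 0.12 (unadjusted p = 0.0149, adjusted p = 0.784 by limma). MCM10, which helps the helicase start, was at 13.7 and 12.0 TPM in sgKAT6A libraries, against 17.3 and 18.3 TPM in EV libraries. The groups of neither gene overlapped.

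**Figure D4:**
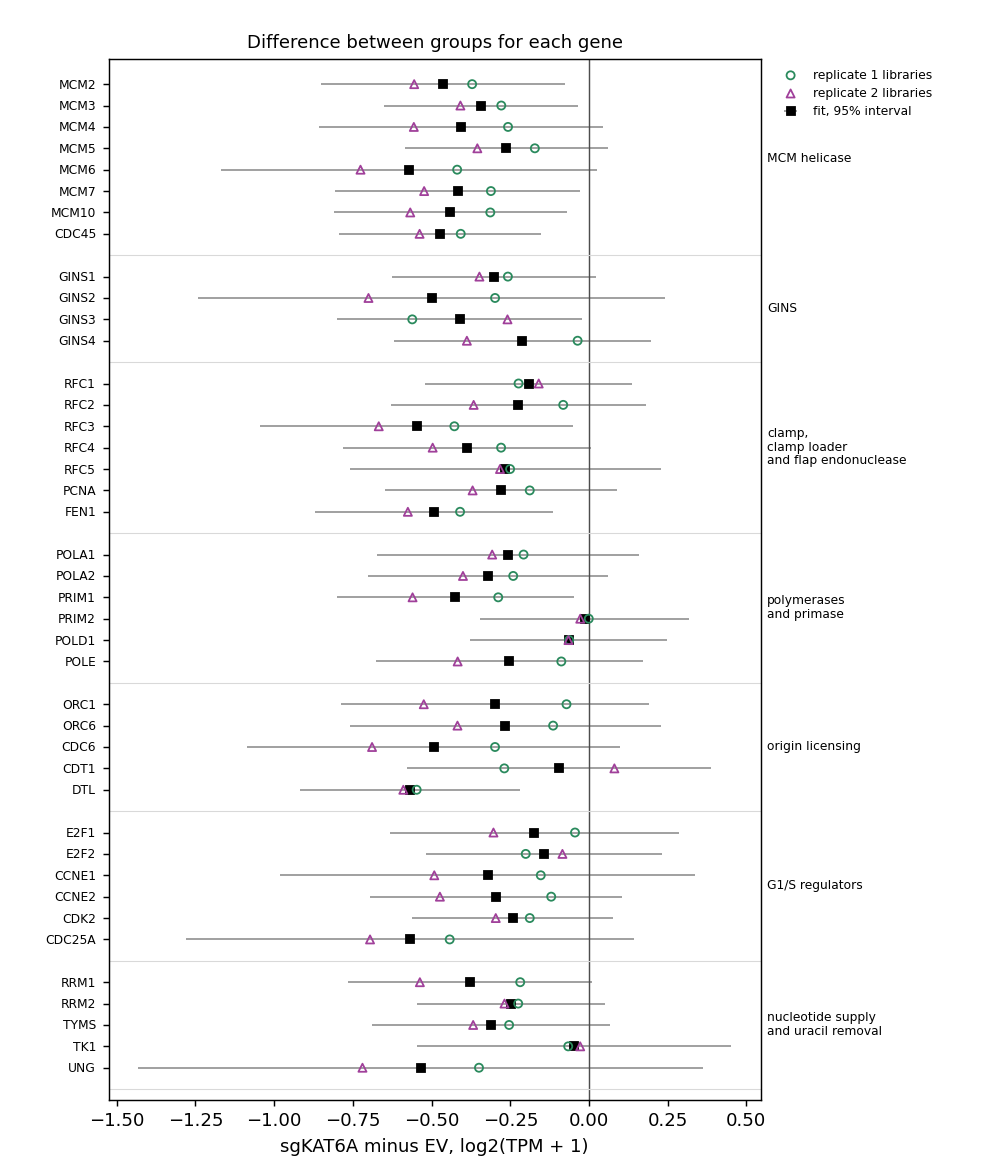
Fitted difference for each gene, sgKAT6A minus EV in log2(TPM + 1), with its 95% interval (black squares and bars), beside the difference within replicate number 1 (green circles) and 2 (purple triangles). All 41 squares lie left of 0, and 10 intervals lie wholly left of it; CDT1 alone has a triangle right of 0.

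The 4 GINS genes, whose products form 1 assembly with CDC45 and the ring, had a median of -0.36. All 4 lay lower without overlap, beside 23.2% of all tested genes. GINS2 was at 41.7 and 26.3 TPM in sgKAT6A libraries, against 51.5 and 43.4 TPM in EV libraries, and its 95% interval, -1.24 to 0.24, was the widest of the 4. GINS3 was at 8.50 and 9.55 TPM in sgKAT6A libraries, against 13.01 and 11.6 TPM in EV libraries, and was the only GINS gene whose interval excluded 0. GINS1 was at 23.2 and 21.7 TPM in sgKAT6A libraries, against 28.0 and 27.9 TPM in EV libraries. GINS2 stood above GINS1, GINS4 and GINS3, in that order, in all 4 libraries. GINS4 nearly overlapped, at 22.7 and 21.0 TPM in sgKAT6A libraries, against 23.3 and 27.8 TPM in EV libraries. Without the second sgKAT6A library the GINS median was -0.22.

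RFC opens the PCNA ring and places it on DNA, and FEN1 trims the flaps of lagging-strand fragments. Of these 7 genes, 6 lay lower without overlap, beside 23.2% of all tested genes. The median of the 7 was -0.28, or -0.24 without the second sgKAT6A library. FEN1 was at 48.6 and 41.5 TPM in sgKAT6A libraries, against 64.9 and 62.3 TPM in EV libraries, a difference of -0.49 ± 0.14. PCNA, the most abundant of the 41, was at 330 and 279 TPM in sgKAT6A libraries, against 376 and 361 TPM in EV libraries. The antisense gene PCNA-AS1, whose RefSeq span of 384 bases lies with all 384 in PCNA exons of GENCODE 29, was at 416 and 306 TPM in sgKAT6A libraries, against 398 and 273 TPM in EV libraries; the strand used in counting is not given, so reads of the pair cannot be told apart. PCNA-AS1 overlapped between groups, and PCNA did not.

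RFC3 was at 35.2 and 27.0 TPM in sgKAT6A libraries, against 47.8 and 43.4 TPM in EV libraries, and had the lowest difference of the loader, -0.55 ± 0.18. RFC4 was at 32.6 and 33.4 TPM in sgKAT6A libraries, against 39.8 and 47.6 TPM in EV libraries. RFC3 and RFC4 led the 5 RFC genes in every library, with RFC3 first in both libraries numbered 1 and RFC4 first in both numbered 2. The large subunit RFC1 had a difference of -0.19 and RFC2 one of -0.22, both without overlap. RFC5 overlapped, at 18.6 and 15.0 TPM in sgKAT6A libraries, against 22.3 and 18.5 TPM in EV libraries.

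Of the 6 polymerase and primase genes, 4 lay lower without overlap (POLA1, POLA2, PRIM1 and POLE), beside 23.2% of all tested genes. The median over the 6 was -0.25, or -0.13 without the second sgKAT6A library and -0.38 without the first. Polymerase alpha and primase start each new strand with a short primer. PRIM1, the catalytic primase subunit, was at 22.1 and 21.2 TPM in sgKAT6A libraries, against 27.3 and 31.7 TPM in EV libraries, a difference of -0.42 ± 0.14. PRIM2, the partner subunit of the same enzyme, was at 20.2 and 18.9 TPM in sgKAT6A libraries, against 20.2 and 19.2 TPM in EV libraries. Its difference was -0.01, with a 95% interval of -0.35 to 0.32, and was above 0 under 3 scalings (0.016, 0.0086 and 0.045). The difference between PRIM1 and PRIM2 was not tested.

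POLA1 and POLA2, the catalytic and accessory subunits of polymerase alpha, had differences of -0.26 and -0.32. PRIM1, PRIM2, POLA2 and POLA1 kept that order in all 4 libraries. POLD1, the catalytic subunit of the lagging-strand polymerase delta, was at 83.5 and 88.0 TPM in sgKAT6A libraries, against 87.3 and 92.1 TPM in EV libraries, and its groups overlapped. POLE, the catalytic subunit of the leading-strand polymerase epsilon, was at 15.7 and 12.7 TPM in sgKAT6A libraries, against 16.7 and 17.3 TPM in EV libraries, and its groups did not overlap. The interval of POLD1 was -0.38 to 0.25 and that of POLE -0.68 to 0.17, and the difference between the 2 genes was not tested.

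Among the 5 origin licensing genes, DTL had the largest difference and CDT1 the smallest. DTL encodes the receptor of the CUL4 ubiquitin ligase that marks CDT1 for destruction in S phase. DTL was at 10.5 and 9.65 TPM in sgKAT6A libraries, against 15.9 and 15.0 TPM in EV libraries, so its mean was 34.6% lower. Its log2 difference of -0.57 ± 0.13 had the smallest p of the 41 (unadjusted p = 0.0106, adjusted p = 0.784 by limma), and its replicates lay close together. CDT1 was at 39.8 and 52.1 TPM in sgKAT6A libraries, against 48.1 and 49.2 TPM in EV libraries. The sgKAT6A libraries were the lowest and the highest of the 4, and without the first of them the difference was 0.10.

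CDC6, which loads the ring together with CDT1, was at 19.3 and 13.3 TPM in sgKAT6A libraries, against 23.9 and 22.1 TPM in EV libraries. Its groups did not overlap, but the gap within sgKAT6A was about as large as the difference between groups. ORC1 was at 18.9 and 14.4 TPM in sgKAT6A libraries, against 19.9 and 21.1 TPM in EV libraries. ORC6 was at 28.8 and 21.9 TPM in sgKAT6A libraries, against 31.3 and 29.6 TPM in EV libraries. In both ORC genes the first sgKAT6A library stood just under the EV libraries and the second well under them. The median of the 5 licensing genes was -0.30, or -0.48 without the first sgKAT6A library and -0.24 without the second.

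The 6 regulators of the G1/S transition had a median of -0.27, or -0.20 without the second sgKAT6A library. Of these, 4 lay lower without overlap (E2F2, CCNE2, CDK2 and CDC25A), beside 23.2% of all tested genes. CDC25A, the phosphatase that activates CDK2, was at 13.03 and 8.49 TPM in sgKAT6A libraries, against 18.1 and 14.4 TPM in EV libraries, a difference of -0.57 ± 0.26 with an interval of -1.28 to 0.14. CDK2 was at 24.5 and 23.5 TPM in sgKAT6A libraries, against 28.1 and 29.1 TPM in EV libraries, with little spread within either group. Of the cyclin E genes, CCNE1 overlapped, at 19.5 and 12.98 TPM in sgKAT6A libraries, against 21.8 and 18.7 TPM in EV libraries. CCNE2 did not, at 21.7 and 18.6 TPM in sgKAT6A libraries, against 23.7 and 26.2 TPM in EV libraries. CCNE2 shares 37.0% of its exon bases with INTS8 on the other strand in GENCODE 29, so its level is uncertain. INTS8 was at 54.5 and 41.5 TPM in sgKAT6A libraries, against 55.2 and 58.1 TPM in EV libraries, also lower without overlap. The strand used in counting is not given, so reads in the shared bases cannot be told apart.

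The E2F genes encode the transcription factors that bind the motif shown above. E2F1 was at 17.0 and 13.3 TPM in sgKAT6A libraries, against 17.6 and 16.7 TPM in EV libraries, and overlapped. E2F2 was at 6.31 and 7.0 TPM in sgKAT6A libraries, against 7.41 and 7.48 TPM in EV libraries, and did not. Their differences were -0.17 (interval -0.63 to 0.29) and -0.14 (interval -0.52 to 0.23).

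Of the 5 genes of nucleotide supply and uracil removal, 3 lay lower without overlap (RRM1, RRM2 and TYMS), beside 23.2% of all tested genes. The median of the 5 was -0.31, or -0.20 without the second sgKAT6A library. RRM1 and RRM2 encode the subunits of ribonucleotide reductase, which makes deoxynucleotides. RRM1 was at 50.5 and 42.8 TPM in sgKAT6A libraries, against 58.9 and 62.5 TPM in EV libraries, and RRM2 at 68.6 and 66.9 TPM in sgKAT6A libraries, against 80.3 and 80.8 TPM in EV libraries. TYMS, which makes thymidylate, was at 178 and 152 TPM in sgKAT6A libraries, against 212 and 196 TPM in EV libraries. TYMS shares 39.1% of its exon bases with ENOSF1 on the other strand, which was at 14.6 to 16.4 TPM in all 4 libraries.

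TK1, the salvage enzyme for thymidine, was at 67.0 and 83.1 TPM in sgKAT6A libraries, against 70.2 and 84.7 TPM in EV libraries. It followed the replicate number rather than the group, and its difference of -0.05 was above 0 with quantile normalization (0.011) and with protein-coding genes rescaled (0.014). UNG, which removes uracil from DNA, was at 30.0 and 17.3 TPM in sgKAT6A libraries, against 38.4 and 29.1 TPM in EV libraries. Both groups were lower in replicate 2, and the interval of UNG, -1.43 to 0.36, was the widest of the 41.

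The difference between groups was not equal in the 2 replicate numbers. It was negative in 41 of 41 genes between libraries numbered 1 and in 40 of 41 between those numbered 2, CDT1 being the exception. The median was -0.25 between libraries numbered 1 and -0.42 between those numbered 2, and it was larger in size in number 2 for 36 of 41 genes. The second sgKAT6A library was below the first in 34 of the 41 genes, with a median gap of -0.22, while in EV the second was below the first in 22, with a median gap of -0.05.

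**Figure D5:**
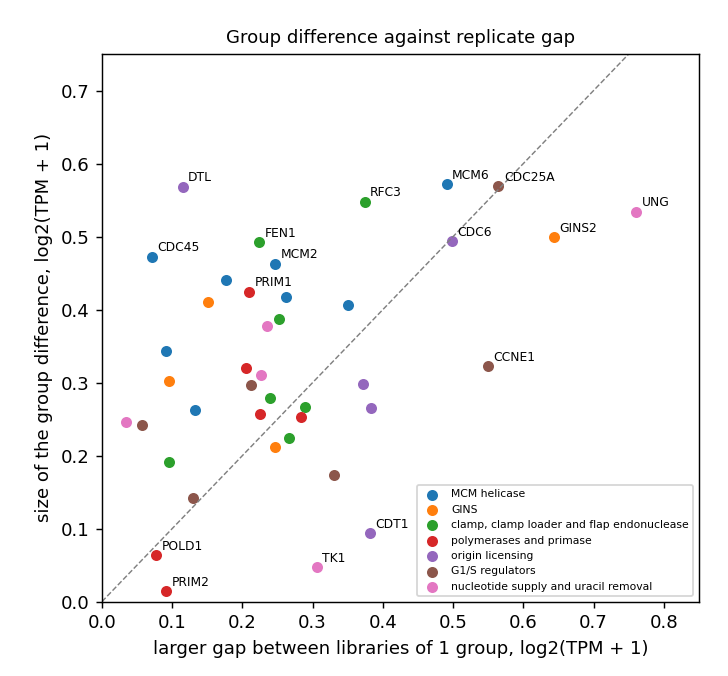
Size of the difference between sgKAT6A and EV (vertical axis) against the larger of the 2 gaps between libraries of 1 group (horizontal axis), both in log2(TPM + 1), coloured by complex; the dashed line marks equality. The 26 genes above the line, among them DTL, CDC45, FEN1 and RFC3, differ by more than either replicate gap, and UNG, GINS2, CCNE1, CDT1 and TK1 lie below it.

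Other replication genes, like the 41 listed with earlier results of these data known, were set beside them. The difference between the lists was not tested. Of 81 tested, 48 lay lower without overlap (59.3%, beside 23.2% of all tested genes) and 0 higher, 9 had an unadjusted p under 0.05, 0 passed the adjusted test, and the median was -0.21. Their range, -0.94 to 0.35, extended past both ends of that of the 41. The low end was UHRF1, at 107 and 31.0 TPM in sgKAT6A libraries, against 114 and 110 TPM in EV libraries. Its difference rested largely on the second sgKAT6A library, and was -0.096 between libraries numbered 1. Of 16 other origin and helicase loading genes 13 lay lower, with a median of -0.19; DBF4, the activator of the CDC7 kinase, was at 11.1 and 9.10 TPM in sgKAT6A libraries, against 13.4 and 12.1 TPM in EV libraries. Of 21 other polymerase and fork genes 13 lay lower, with a median of -0.21. DSCC1, part of an alternative clamp loader, was at 20.2 and 18.2 TPM in sgKAT6A libraries, against 28.8 and 27.9 TPM in EV libraries, and POLE2, the accessory subunit of polymerase epsilon, had a difference of -0.58 ± 0.20.

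Of 7 genes of chromatin assembly and DNA methylation behind the fork, 6 lay lower, with a median of -0.30. CHAF1B, a subunit of the CAF-1 histone chaperone, was at 9.72 and 7.56 TPM in sgKAT6A libraries, against 13.1 and 12.0 TPM in EV libraries. Of 11 other E2F and RB family genes 3 lay lower (27.3%, near the 23.2% of all tested genes), with a median of -0.14. TFDP1, the partner subunit of E2F, was at 155 and 116 TPM in sgKAT6A libraries, against 186 and 171 TPM in EV libraries, and the pocket protein gene RBL2, 1 of 2 in the list with a positive difference, was at 34.9 and 39.9 TPM in sgKAT6A libraries, against 28.9 and 35.2 TPM in EV libraries, with overlap. Of 17 other nucleotide supply genes 7 lay lower, with a median of -0.30, and DUT, which clears dUTP, had a difference of -0.38 ± 0.12. Of 9 S-phase checkpoint genes 6 lay lower, and CHEK1, the checkpoint kinase, was at 12.6 and 12.3 TPM in sgKAT6A libraries, against 16.2 and 15.7 TPM in EV libraries.

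Neighbouring genes that share a start region offered a comparison within the same stretch of DNA. For 9 members (DTL, FEN1, MCM2, MCM7, ORC1, ORC6, PCNA, POLE and TK1) a coding gene starts on the opposite strand within 1000 bp. The 9 partners had a median difference of -0.11, with 3 lower without overlap and 0 higher, beside 23.2% and 14.4% of all tested genes. The 9 members had a median of -0.30. AP4M1, which starts 40 bp from MCM7, was at 5.10 and 7.57 TPM in sgKAT6A libraries, against 5.22 and 6.61 TPM in EV libraries. The 3 partners lower without overlap were PRPF38A (-0.14, beside ORC1 at -0.30), VPS35 (-0.18, beside ORC6 at -0.27) and AFMID (-0.33, beside TK1 at -0.05). AFMID, at 21.2 and 17.8 TPM in sgKAT6A libraries, against 26.8 and 22.6 TPM in EV libraries, had the larger difference of its pair. CDS2, beside PCNA at -0.28, also had the larger difference in size, but in the other direction, at 0.34 with overlap. Of the 9 partners, 7 had a negative difference. The difference between members and partners was not tested.

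Genes of other programs were read in the same libraries, and 0 of those listed passed the adjusted test. Of 21 G2/M and mitosis genes, 15 lay lower without overlap (71.4%, beside 23.2% of all tested genes) and 0 higher (beside 14.4%), with a median of -0.25. Of 15 genes for MYC and nucleolar proteins it controls, 7 lay lower without overlap (46.7%) and 0 higher, with a median of -0.53; in all 15 the second library of each group was below the first. Markers of maturing monocytes or macrophages summed to 12118 and 11979 TPM in sgKAT6A libraries, against 7612 and 9670 TPM in EV libraries, LYZ making up 10975 and 9500 TPM in sgKAT6A libraries, against 7060 and 8068 TPM in EV libraries. Of the 12, 11 were tested; all 11 had a positive difference, with a median of 0.91, and 1 of them, LYZ, was higher without overlap; CD163 was under 1 TPM in every library. Replicate 2 stood above replicate 1 in these markers by a median of 1.47 in sgKAT6A and 1.66 in EV, more than the difference between groups, and 1 of the 11 differed between groups by more than both gaps. Of 7 neutrophil markers 5 were tested, with 4 positive differences, 1 negative, and a median of 0.43. The most abundant, ELANE, was at 1162 and 564 TPM in sgKAT6A libraries, against 1494 and 607 TPM in EV libraries, a difference of -0.23, and CAMP was higher without overlap, at 2.39 and 3.11 TPM in sgKAT6A libraries, against 0.906 and 1.53 TPM in EV libraries. FCGR3B was 0 in every library. The part of these programs in the levels of the 41 genes was not tested.

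Of the markers of unrelated cells, most were low and some were not. Of 5 B cell markers 0 reached a mean of 1 TPM, and MS4A1 was 0 in every library. Of the T cell markers CD2 was 0, and CD3D was at 5.65 and 11.5 TPM in sgKAT6A libraries, against 7.17 and 10.5 TPM in EV libraries. Of 6 epithelial or fibroblast markers 4 were under 1 TPM, while KRT18 was at 6.20 and 5.99 TPM in sgKAT6A libraries, against 6.09 and 7.12 TPM in EV libraries, and KRT8 at 3.03 and 3.57 TPM in sgKAT6A libraries, against 2.74 and 3.02 TPM in EV libraries. Of the erythroid and megakaryocyte markers PF4 was 0, and HBA1 was at 189 and 116 TPM in sgKAT6A libraries, against 67.3 and 200.8 TPM in EV libraries. The haemoglobin gene HBB was at 188 and 61.1 TPM in sgKAT6A libraries, against 38.6 and 192 TPM in EV libraries, a pattern that followed neither group nor replicate number. GENCODE 29 lists pseudogenes named after 7 of the 41 genes (FEN1, PCNA, RFC3, RFC5, RRM2, TYMS and UNG), so reads may be split between copies and the levels of these 7 are uncertain. Besides TYMS and CCNE2, 4 genes share over 20% of their exon bases with another gene in GENCODE 29, which makes their levels uncertain too. POLA2 shares 35.1% and RRM2 20.2% with a coding gene on the same strand, and MCM2 shares 22.7% and GINS4 21.2% with an antisense gene.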

How the data were processed

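Total RNA of MOLM-13 cells was sequenced as 2 sgKAT6A and 2 EV libraries, assigned by sample title. The authors deposited gene-level TPM values as a single table. Salmon and hg38 are named in the submitters' processing notes. Tool version, annotation, strand setting, summing to genes and filters: not given in the sources used here. TPM keeps no read depth, so no counting error could be computed, and an abundant RNA moves the share of every other gene.

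Values were used as log2(TPM + 1), which understates changes of low genes. The 12603 genes whose mean reached 1 TPM were fitted with limma 3.58.1 in R 4.3.3 (group term, moderated variances with a trend, 2 residual and 1.98 prior degrees of freedom), two-sided, with Benjamini-Hochberg adjustment over all genes tested and a threshold of 0.05. The code was tested on simulated data. An exact permutation test of 2 against 2 libraries cannot go below p = 0.333, so none was run on single genes. Genes lower without overlap have both sgKAT6A libraries below both EV libraries. All 41 genes were named by complex. Of the other pathway lists, at most the 3 genes with the smallest p were named, besides UHRF1, which had the lowest difference. Cell type markers, neighbouring genes and the genes of the closing section fall outside that rule and were in part chosen after their values were seen. The members and all lists were chosen with earlier results of these data known. The 13 alternatives varied the pseudocount (0.1 or 5), filter (none or 5 TPM), scaling, variance model, replicate block and library left out. Promoter windows are RefSeq (GRCh38.p14), and gene overlaps and pseudogenes GENCODE 29 (GRCh38). Plots used Python 3.11.15 with matplotlib 3.10.9.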

Additional observations from a re-analysis of the deposited data

How the results depend on the processing

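The difference between sgKAT6A and EV kept its direction in 523 of 533 combinations of the 41 genes with 13 alternatives, and 38 genes were negative in all of them. The 10 exceptions were PRIM2, TK1 and CDT1. PRIM2 was at 0.016 with median-of-ratios scaling, 0.0086 with quantile normalization and 0.045 with protein-coding genes rescaled. TK1 was at 0.011 with quantile normalization and 0.014 with protein-coding genes rescaled. Leaving out 1 library at a time, PRIM2 ranged from -0.060 to 0.032, above 0 without the first EV or the second sgKAT6A library. TK1 ranged from -0.200 to 0.106, above 0 without the second EV or the first sgKAT6A library. CDT1 ranged from -0.285 to 0.097, above 0 without the first sgKAT6A library. The cause was not tested. With all 4 libraries, 30 to 33 of the 41 genes lay lower without overlap, beside 16.2% to 27.3% of all tested genes. With 1 library left out, 35 to 38 did, beside 33.3% to 44.2%, since 1 library against 2 overlaps less often. The median difference of the 41 ranged from -0.41 without the first sgKAT6A library to -0.23 without the second. With median-of-ratios scaling the median of all genes was 0.01, against -0.02 as deposited. The medians of all 7 complexes were negative under each of the 13 alternatives.

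The replicate block is not the main fit, because the labels do not say that a number marks a shared culture. Deviations of libraries with the same number correlated at 0.45 across the 12603 genes, over 2 pairs. With the replicate block, 15 genes passed an adjusted p of 0.05, against 0 without it, but 0 of the 41 did. An unadjusted p under 0.05 was then held by 24 of the 41, against 10, and by 2417 of all 12603 genes, against 459. Among the 41 the count was 6 with quantile normalization, 6 with protein-coding genes rescaled, 7 without the variance trend and 14 without the filter. Over all genes tested it was 408 of 12603, 367 of 10999, 462 of 12603 and 933 of 21351, in that order. TPM keeps no depth, so what depth limits could not be computed, and the size of difference that 2 libraries per group can resolve was not tested.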

Other observations

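RRP12, a ribosome biogenesis gene chosen after its values were seen, was at 25.7 and 0.665 TPM in sgKAT6A libraries, against 33.0 and 26.3 TPM in EV libraries, so a single library stood apart. MMP9 and CD14, singled out from the marker lists after their values were seen, were higher in the second library of each group. MMP9 was at 2.40 and 212 TPM in sgKAT6A libraries, against 1.02 and 85.1 TPM in EV libraries, and CD14 at 3.04 and 54.3 TPM in sgKAT6A libraries, against 1.08 and 29.3 TPM in EV libraries. MYC ran the other way, at 107 and 55.7 TPM in sgKAT6A libraries, against 161 and 93.0 TPM in EV libraries.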
